A study of Mus musculus with 21 samples.

Results

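Mice of 2 basal cell carcinoma (BCC) models were compared by the change that each tumour made in tail keratinocytes, the cells of the epidermis. The tumour effect of a model was the log2 fold change from its tumour-free control mice (Con) to its tumour mice (BCC). The difference between the PKI effect and the SmoM2 effect, called the interaction here, was tested gene by gene on 14 of the 21 libraries. These were 3 Con and 4 BCC libraries of SmoM2, taken 29 days after tumour induction in batch A, and 3 Con and 4 BCC libraries of PKI, taken 57 days after induction in batch C. SmoM2 is an activated form of Smoothened, and PKI is the name of a protein kinase A inhibitor. The labels give no promoter, Cre or inducing agent for either model and do not describe the PKI construct. Control mice are labelled only as having epidermis without tumour. Model, day and batch coincide, so they cannot be told apart in any difference given here. A shift of all libraries of a batch by the same factor drops out of the interaction, while a batch that changes the size of a tumour effect does not. Animals of SmoM2 BCC are named with a different prefix in the headers than animals of SmoM2 Con, whereas all PKI animals share one. What a prefix stands for is not given in the sources used here, and in SmoM2 it cannot be told apart from the tumour. The remaining 7 libraries, of a model called Gnas-eKO (42 days, batch B), took no part in the main fit. They were used to read the genes found here in other mice, and in a joint fit of all 21 libraries as an alternative. Unless they are named, statements on other libraries or on controls cover the 14 libraries of SmoM2 and PKI.

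Hedgehog signalling drives basal cell carcinoma. The receptor Ptch1 holds Smoothened inactive until a ligand such as Shh binds, and Smoothened then lets the Gli factors switch on targets that include Ptch1, Gli1 and Hhip. Protein kinase A, which cAMP activates downstream of the G protein encoded by Gnas, phosphorylates Gli proteins and so holds the pathway down, and PKI blocks its catalytic subunits. In skin this kinase also acts through CREB, and the same G protein arm restrains YAP.

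Library totals ran from 16645858 to 22251132 counts, and 3 counts amounted to at most 0.189 CPM (counts scaled to a library's size). Each group held female and male libraries by Xist and Y-linked counts. The 8 keratinocyte markers summed to 37700 to 74500 CPM in every library, whereas endothelial markers reached at most 8.44 CPM and muscle markers at most 1.92. The 17 leukocyte markers in the table summed to 373 to 752 CPM in PKI BCC, against 61.2 to 170 in PKI Con, 76.3 to 146 in SmoM2 BCC and 104 to 128 in SmoM2 Con. The 10 fibroblast markers summed to 431 to 580 CPM in SmoM2 BCC, 133 to 178 in PKI BCC, 138 to 165 in SmoM2 Con and 37 to 85.6 in PKI Con. Dcn made up most of the sum in SmoM2 BCC, at 362 to 500 CPM against 12.2 to 27.7 in SmoM2 Con. Thy1 made up most of it in SmoM2 Con, at 106 to 137 CPM, and went the other way, to 41.6 to 55.9 in SmoM2 BCC. Csf3r among the leukocyte markers was at 0 in PKI Con, and Dpt among the fibroblast markers in SmoM2 Con. In bulk libraries, fewer cells of a type and less RNA per cell cannot be told apart. On the first principal component of the 14 libraries, with 34.8% of the variance, Con libraries lay at −57 to −38.1, SmoM2 BCC at 6.12 to 18.7 and PKI BCC at 52.4 to 82.1. The second component, with 28%, held SmoM2 BCC at −73.4 to −59.4, apart from SmoM2 Con at 9.79 to 20.6, PKI Con at 23.4 to 28.3 and PKI BCC at 28.3 to 43.1. Nothing states that the mice of a group were raised or processed apart, so p-values measure the spread between these libraries.

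The promoters of 4 genes that the comparison turns on are printed here with the letters of known motifs in capitals, to show members of both opposed sets and a gene with a large interaction, and no motif stands in all of them. They come from RefSeq on GRCm38.p6 and run from 250 bases before the start site to 50 after it, 5′ to 3′ on the gene's strand, with positions counted from the start site as 0. The letters searched, on both strands, were GACCACCCA for GLI, TGACGTCA for CREB (the CRE), TGANTCA for AP-1 and GGAATG for TEAD, the DNA-binding partner of YAP. The TEAD letters stand at −137 and 38 of Pdgfc, a growth factor gene that fell in PKI and rose in SmoM2 (chr3:81036166-81036465, plus strand).
Pdgfc: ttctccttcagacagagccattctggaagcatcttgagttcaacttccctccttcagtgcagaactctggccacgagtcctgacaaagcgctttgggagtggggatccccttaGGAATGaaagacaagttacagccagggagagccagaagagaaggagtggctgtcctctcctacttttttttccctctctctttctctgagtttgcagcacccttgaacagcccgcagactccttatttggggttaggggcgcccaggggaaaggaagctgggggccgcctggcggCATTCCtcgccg
The same letters stand at −208 of Lrat, a retinol-esterifying enzyme gene that moved the other way (chr3:82903925-82904224, minus strand).
Lrat: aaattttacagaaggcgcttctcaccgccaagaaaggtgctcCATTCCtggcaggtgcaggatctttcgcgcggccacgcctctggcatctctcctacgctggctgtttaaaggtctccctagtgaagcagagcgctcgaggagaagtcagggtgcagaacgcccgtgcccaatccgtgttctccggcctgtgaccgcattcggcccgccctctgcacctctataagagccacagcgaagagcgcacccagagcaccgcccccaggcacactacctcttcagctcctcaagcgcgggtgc
Stfa3, a cysteine protease inhibitor gene that rose in PKI and fell in SmoM2, holds the AP-1 letters at 29 (chr16:36455343-36455642, minus strand).
Stfa3: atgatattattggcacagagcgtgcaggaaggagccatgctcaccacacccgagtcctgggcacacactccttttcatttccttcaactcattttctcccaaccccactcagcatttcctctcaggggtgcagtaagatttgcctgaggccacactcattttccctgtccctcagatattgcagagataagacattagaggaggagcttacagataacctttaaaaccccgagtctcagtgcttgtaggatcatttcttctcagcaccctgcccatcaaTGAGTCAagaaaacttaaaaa
Areg, the EGF receptor ligand amphiregulin, rose in PKI and holds the CRE at −61 (chr5:91139349-91139648, plus strand).
Areg: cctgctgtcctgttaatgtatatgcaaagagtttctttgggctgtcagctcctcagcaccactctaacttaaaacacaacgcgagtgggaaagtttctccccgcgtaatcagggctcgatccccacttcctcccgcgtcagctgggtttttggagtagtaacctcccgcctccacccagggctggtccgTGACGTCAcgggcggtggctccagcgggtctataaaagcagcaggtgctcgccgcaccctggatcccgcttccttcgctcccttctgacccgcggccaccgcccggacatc
A match of letters is a description and no binding was measured.

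The tumour effects of PKI and SmoM2 differed for 4300 of 17261 genes tested, 24.9%, at an adjusted p under 0.05 (edgeR's quasi-likelihood test with Benjamini-Hochberg adjustment). The PKI effect was the higher in 2181 of them (12.6%) and the lower in 2119 (12.3%). The PKI effect itself was called for 6406 genes (37.1%) and the SmoM2 effect for 5046 (29.2%). Both were called for 2411 genes, which is 37.6% of the PKI calls and 47.8% of the SmoM2 calls. Of these 2411, 1932 moved the same way in both models and 479 moved in opposite directions, 2.78% of all genes tested. All 479 were also called in the interaction. They divide into 205 genes that rose in PKI and fell in SmoM2 (1.19% of genes tested) and 274 that fell in PKI and rose in SmoM2 (1.59%). Most calls in the interaction were of other kinds. The interaction and the PKI effect alone were called for 1944 genes (11.3%), the interaction and the SmoM2 effect alone for 1344 (7.79%), both effects in the same direction but of different size for 318 (1.84%), and neither effect for 215 (1.25%). The count of genes opposed with PKI higher fell from 205 to 127 without SmoM2 BCC replicate 1, to 133 without SmoM2 BCC replicate 2 and to 134 without SmoM2 Con replicate 2. In a joint fit of all 21 libraries 263 genes were opposed, 107 with PKI higher and 156 with PKI lower.

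**Figure D1:**
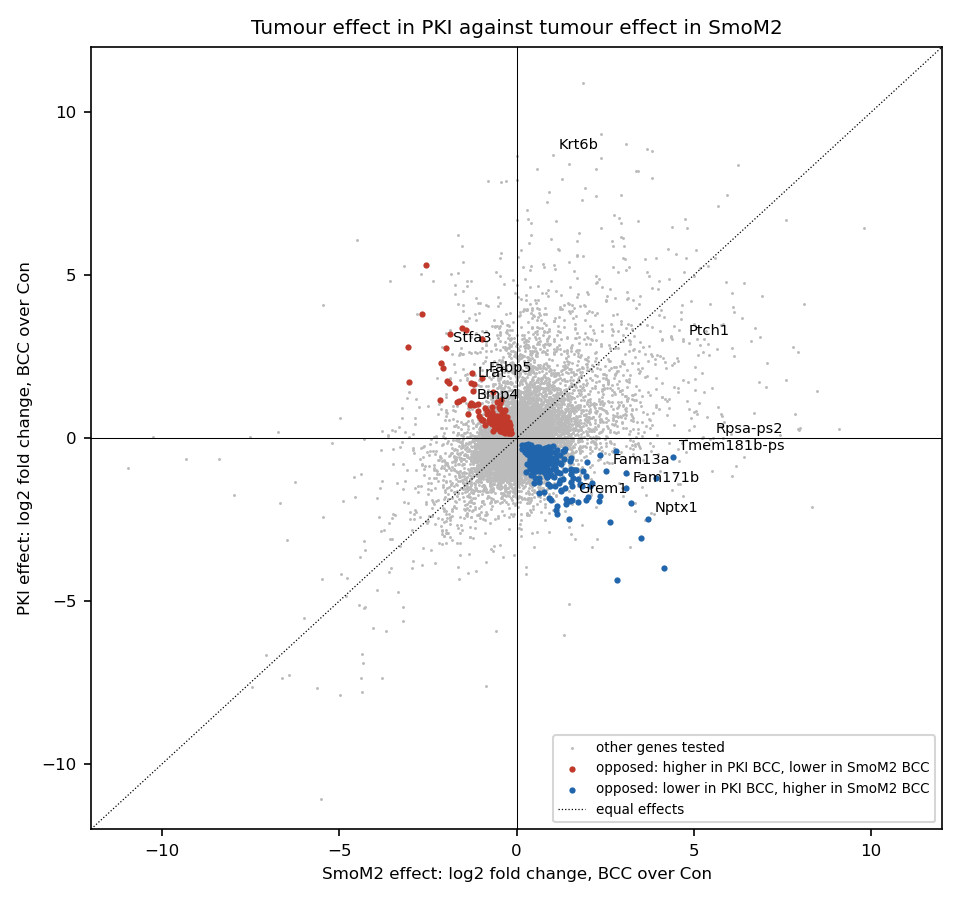
Each point is 1 of 17261 genes, with the SmoM2 effect on the x axis and the PKI effect on the y axis, both as log2 fold changes from Con to BCC, and the dotted line marks equal effects. The 205 red genes rose in PKI and fell in SmoM2, the 274 blue genes did the reverse, and Ptch1 lies below the line because its rise was the smaller in PKI.

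Both sets of opposed genes had moderate changes at the median. In the 205 genes higher in PKI, the median effect was 0.44 in PKI and −0.399 in SmoM2, and 25 genes (12.2%) changed at least 2-fold in both models. Among the 274 genes lower in PKI the medians were −0.657 and 0.675, and 45 genes (16.4%) changed at least 2-fold in both, as did 7.07% of all genes in any direction. Over all genes tested the medians were −0.016 in PKI and −0.0108 in SmoM2. BCC and Con libraries did not overlap in either model for 171 (83.4%) and 229 (83.6%) of the genes, against 17.5% of all genes tested. The 4 PKI BCC libraries lay wholly apart from the 4 SmoM2 BCC libraries for 203 of the 205 genes (99.0%) and 267 of the 274 (97.4%), against 39.9% of all genes tested. The 2 Con groups also lay apart for 101 (49.3%) and 126 (46.0%) of them, against 18.8% of all genes, so the controls of these genes often started from different levels. Protein-coding genes made up 94.1% and 95.3%, against 80.6% of genes tested. Since the sets were chosen from these libraries, these shares describe them and are not tests.

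Stfa3 had the highest interaction among opposed genes that averaged a log2 CPM of 2 or more and whose BCC and Con libraries did not overlap. This stefin gene (chr16:36450537-36455392 on mm10, minus strand) stood at 172, 146 and 127 CPM in SmoM2 Con and at 37.7, 51.7, 27.5 and 33.3 in SmoM2 BCC. It stood at 102, 76.7 and 114 CPM in PKI Con and at 727, 663, 596 and 643 in PKI BCC. The PKI controls lay below the SmoM2 controls without overlap, SmoM2 tumours were the lowest group and PKI tumours the highest. The effects were 2.75 (SE 0.20) in PKI and −1.98 (SE 0.19) in SmoM2, and the interaction was 4.74 (SE 0.28, adjusted p 5.56e-07). Stefin A genes are near copies of one another, so reads may have been divided among them.

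Fabp5, the fatty acid-binding protein of the epidermis (chr3:10012548-10016607), fell from 587, 682 and 589 CPM to 325, 224, 431 and 288 in SmoM2. It rose from 375, 482 and 393 CPM to 2110, 1800, 977 and 1040 in PKI. The PKI tumours formed a higher and a lower pair, both above every other library of the comparison. The higher pair were the libraries that hold Xist, which also had the higher values of Krt6b, S100a8, S100a9 and Eno1 among PKI tumours. The interaction of Fabp5 was 2.80 (SE 0.39, adjusted p 0.000492), and 2.77 with sex as a covariate. Lrat, which stores retinol as esters (chr3:82892579-82903973), had 14.8, 15 and 9.3 CPM in SmoM2 Con and 3.07, 5.02, 6.61 and 6.85 in SmoM2 BCC. PKI Con had 8.66, 7.12 and 7.63 CPM of it and PKI BCC 33, 24.1, 23.8 and 20.4. The interaction of Lrat was 2.97 (SE 0.36, adjusted p 9.08e-05).

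Dlx3 and Bmp4 are genes of the hair matrix programme, a homeobox factor and a secreted ligand. Dlx3 (chr11:95120119-95125296) fell from 45.1, 58.5 and 104 CPM to 21.4, 24.6, 35.5 and 31.2 in SmoM2 and rose from 80, 55.1 and 45 CPM to 125, 126, 137 and 117 in PKI. Every SmoM2 tumour lay under every control of both models and every PKI tumour above them. Its interaction was 2.36 (SE 0.39, adjusted p 0.00128). Bmp4 (chr14:46383520-46390669) had 12.9, 9.8 and 7.57 CPM in SmoM2 controls, 3.16 to 4.78 in SmoM2 tumours, 10.5 to 13.7 in PKI controls and 18.9 to 31.5 in PKI tumours. Its interaction was 2.32 (SE 0.30, adjusted p 0.000136), and it overlaps an exon of Gm15217 on the other strand.

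Among the remaining 5 of the 10 highest opposed genes, SmoM2 tumours lay below every other library of the comparison for Pcdh19, Sytl2 and Thbd, and overlapped PKI Con for Ulbp1 and Ripk3. For Pcdh19, a protocadherin of cell adhesion, the interaction was 2.13, with 5.74 to 8.65 CPM in SmoM2 BCC and 23.3 to 25.8 in PKI BCC. Sytl2, which links Rab27 vesicles to membranes, had 4.11 to 6.6 CPM in SmoM2 BCC and 15.9 to 18.5 in PKI BCC, with an interaction of 1.92. Ulbp1, a ligand of the killer cell receptor NKG2D, had an interaction of 1.76, with SmoM2 BCC at 5.23 to 8.77 CPM and PKI BCC at 10.3 to 15.6. Ripk3, the kinase of necroptosis, had 4.66 to 6.65 CPM in SmoM2 BCC and 12.3 to 17 in PKI BCC, an interaction of 1.66. Thbd, the surface protein thrombomodulin, had 77 to 104 CPM in SmoM2 BCC and 175 to 278 in PKI BCC, an interaction of 1.60. The adjusted p of these 5 ran from 0.00013 to 0.00191, and no setting or left-out library ended a call among the 10.

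Nptx1 had the lowest interaction among opposed genes that met the same limits on level and overlap. It encodes neuronal pentraxin 1, a secreted protein known from synapses, at chr11:119538719-119547753. SmoM2 Con libraries had 4.22, 3.9 and 4.11 CPM and SmoM2 BCC libraries 58.2, 70.4, 36.3 and 49.9. PKI Con libraries had 14, 18.9 and 18.4 CPM and PKI BCC libraries 3.49, 3.81, 3.47 and 1.48. The PKI controls thus started well above the SmoM2 controls, and the PKI tumours ended below both. The effects were −2.47 (SE 0.26) in PKI and 3.72 (SE 0.28) in SmoM2, with an interaction of −6.19 (SE 0.39, adjusted p 8.31e-07).

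Grem1, Pdgfc, Angptl7 and Ccn2 encode secreted proteins and fell in PKI while they rose in SmoM2. Grem1, an antagonist of BMP ligands (chr2:113746164-113758646), rose from 17.7, 19.1 and 12 CPM to 58.7, 52.3, 37 and 44.5 in SmoM2 and fell from 20.8, 19.5 and 27.3 CPM to 4.36, 4.74, 9.25 and 5.86 in PKI. Its interaction was −3.45 (SE 0.36, adjusted p 4.51e-05), opposite in sign to that of Bmp4. Pdgfc, a ligand of the PDGF receptors (chr3:81036416-81214040), rose from 11.7, 9.4 and 7.08 CPM to 26.9, 24.2, 23 and 25.6 in SmoM2 and fell from 14.1, 13.7 and 18.8 CPM to 3.49, 2.58, 5.6 and 3.45 in PKI. All 4 SmoM2 tumours lay above, and all 4 PKI tumours below, every control. The interaction of Pdgfc was −3.43 (SE 0.31, adjusted p 8.5e-06). Ccn2, a matrix-associated protein and a standard YAP target (chr10:24595442-24598683), had 96.2, 71.4 and 99.9 CPM in SmoM2 Con, 194, 234, 212 and 219 in SmoM2 BCC, 145, 84.2 and 126 in PKI Con, and 43.9, 56.8, 33 and 24.2 in PKI BCC. Its interaction was −2.85 (SE 0.36, adjusted p 0.000254). Angptl7, a secreted angiopoietin-like protein, had an interaction of −3.70 (SE 0.35), with 38.9 to 52.1 CPM in SmoM2 BCC and 9.21 to 16.2 in PKI BCC, while its PKI controls at 28.7 to 62.4 reached the level of the SmoM2 tumours.

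**Figure D2:**
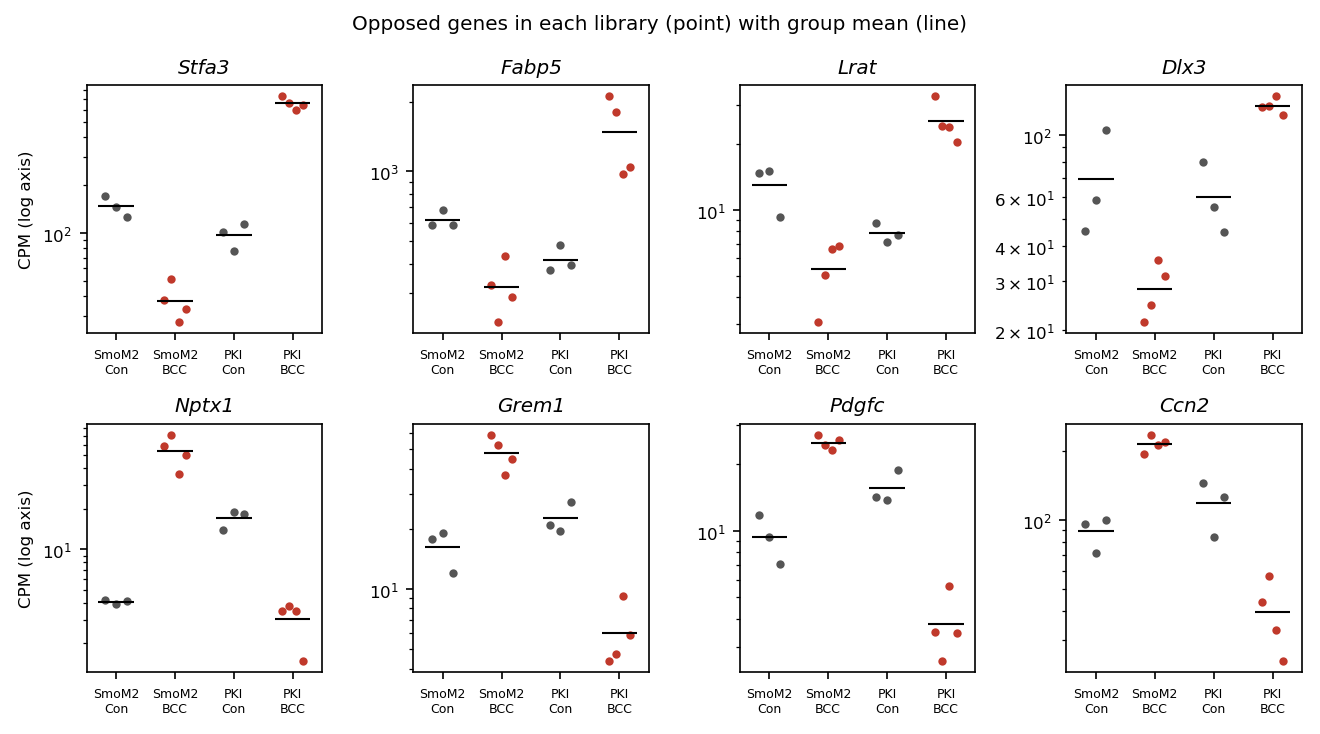
CPM of 8 opposed genes in each of the 14 libraries (points, log axis, BCC in red) with group means (lines). By group mean, SmoM2 BCC is the lowest and PKI BCC the highest group in the upper row, and the reverse holds in the lower row.

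The rest of the 10 lowest had other roles. Klf15, a zinc-finger transcription factor, had 17.2 to 25.4 CPM in SmoM2 BCC and 4.09 to 4.82 in PKI BCC, with an interaction of −2.89 (SE 0.23). Rbms3, an RNA-binding protein, had an interaction of −3.01, Prrg3, a transmembrane protein, −3.28, and Fam13a −3.53. Fam171b, with an interaction of −4.63 (SE 0.67), had 19.3 to 38.6 CPM in SmoM2 BCC and 1.32 to 2.26 in PKI BCC. Tmem181b-ps is annotated as a pseudogene, and its interaction of −4.98 came mainly from SmoM2, where it stood at 0.486 to 0.596 CPM in Con and 11.3 to 12.4 in BCC. PKI libraries of both kinds had 3.39 to 6.78 CPM of it. Pseudogene counts can hold reads of near-identical copies, and the SmoM2 Con animals carry another name prefix than the SmoM2 BCC animals (Gnas-eKO animals share that of SmoM2 Con), so what it marks and the tumour cannot be told apart here. No setting or left-out library ended a call among these 10 genes or that of Ccn2.

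The TEAD letters were found in 22.5% of the 213 promoters matched among the 274 genes lower in PKI, in 14.1% of the 163 matched among the 205 genes higher in PKI, and in 14.7% of the 11484 matched among all genes tested. The AP-1 letters stood in 9.86%, 7.98% and 6.79%, and the CRE in 4.69%, 1.84% and 3.36%. The GLI letters were in 0 and 1 promoters of the 2 sets and in 0.244% of those of genes tested. All 27025 genes of the promoter table held them in 0.289% (GLI), 2.03% (CRE), 8.97% (AP-1) and 16.6% (TEAD). These shares carry no test, and a gene without the letters may have them outside the window.

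The Gnas-eKO libraries, which took no part in choosing the opposed genes, moved with SmoM2 more often than with PKI. Of the 205 genes higher in PKI and lower in SmoM2, 202 could be tested there and 159 (78.7%) had a negative Gnas-eKO effect, with a median of −0.19. Of the 274 genes lower in PKI, 271 could be tested and 231 (85.2%) had a positive Gnas-eKO effect, with a median of 0.341. Over all genes the shares were 47.7% negative and 52.3% positive. Few single genes passed the test in the 7 Gnas-eKO libraries, where 240 of 16409 genes were called higher (1.46%) and 27 lower (0.165%). Of the first set 0 were called higher and 2 lower, and of the second 12 higher and 0 lower. In the joint fit of all 21 libraries, 1573 of 17695 genes were called higher in Gnas-eKO (8.89%) and 1071 lower (6.05%). In it 1 gene of the first set was called higher and 47 lower, and 80 of the second were called higher and 2 lower. Thbd was a gene of the first set that fell (−0.80, adjusted p 0.0375), and Ltbp2 and Nt5e were genes of the second that rose (1.76, adjusted p 0.0456, and 1.23, adjusted p 0.0403). The Gnas-eKO count of 267 calls rested on single libraries and ranged from 0 without Con replicate 1 or 2 to 1910 without BCC replicate 2. Without Con replicate 3 it was 4, without BCC replicate 1 38 and without BCC replicate 4 59.

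Hedgehog pathway genes rose more in SmoM2 than in PKI. Of 25 genes on the list, 23 were tested, and the interaction was lower in PKI for 15 and higher for 2, with a median of −1.10 against −0.01 over all genes tested. Over all genes the interaction was lower in 12.3% and higher in 12.6%. In SmoM2 17 rose and 1 fell, with a median effect of 1.09, where 14.8% of all genes rose and 14.4% fell. In PKI 10 rose and 4 fell, with a median of 0.11, where 19.2% of all genes rose and 17.9% fell. These shares are the background for the lists that follow. Receptors and factors carried much of this. Ptch1, the receptor and main feedback target, had 33.3, 30.7 and 42.9 CPM in SmoM2 Con and 986, 1060, 799 and 827 in SmoM2 BCC, against 32.9, 30.8 and 40 in PKI Con and 256, 209, 290 and 339 in PKI BCC. The controls matched, both tumours were raised, and the 2 tumour groups did not overlap. Its effects were 4.69 (SE 0.20) in SmoM2 and 2.98 (SE 0.18) in PKI, and the interaction was −1.71 (SE 0.24, adjusted p 0.000268). Gli1, the activator that is itself a target, had interaction −1.95 (SE 0.44, adjusted p 0.00851), with 252 to 294 CPM in SmoM2 BCC and 66 to 103 in PKI BCC, but its interaction did not pass in the joint fit (highest adjusted p over the alternatives 0.175). Gli2, the main activator, had 15.8 to 17 CPM in SmoM2 controls and 173 to 209 in their tumours, against 15.2 to 21.1 CPM in PKI controls and 31.8 to 59.1 in theirs, an interaction of −2.23 (SE 0.27, adjusted p 0.000126).

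Co-receptors and transducers behaved in several ways. Boc, a co-receptor that binds the ligand, was the opposed member of the list. It rose from 70.1, 60.7 and 73.3 CPM to 147, 146, 103 and 118 in SmoM2 and fell from 99.8, 68.7 and 71.8 CPM to 51.5, 51.1, 44.6 and 39.8 in PKI, an interaction of −1.70 (SE 0.22, adjusted p 0.000144). Gas1, another co-receptor, rose in SmoM2 (1.23) and had an effect of −0.06 in PKI, while Cdon, the third, fell in PKI (−1.23) and had an effect of 0.10 in SmoM2. Smo itself rose in both, from 93.6 to 110 CPM to 282 to 312 in SmoM2 and from 98 to 113 CPM to 138 to 161 in PKI, an interaction of −1.02 (SE 0.11, adjusted p 4.51e-05). Reads of a SmoM2 transgene may count under Smo, which was not tested. Gpr161, a receptor that holds the pathway down through cAMP, had interaction −0.89, the ciliary regulator Kif7 −1.18, and Gli3, mainly a repressor, −0.70.

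Targets outside the core also differed. Hhipl1, a relative of the inhibitor Hhip, had 24.8 to 34.7 CPM in SmoM2 BCC, 2.84 to 4.55 in PKI BCC and at most 0.694 in the SmoM2 and PKI controls, with an interaction of −3.35 (SE 0.65, adjusted p 0.00222). The interactions of Bcl2, Sox9 and Ccnd2 were −1.26, −1.10 and −0.75. That of Ccnd2 includes a difference between controls, at 280 to 339 CPM in SmoM2 and 544 to 628 in PKI. Its tumour groups overlapped, at 315 to 363 CPM in SmoM2 and 312 to 467 in PKI. Foxe1, a hair follicle factor downstream of Gli2, went the other way. It had 0.734, 0.974 and 1.35 CPM in SmoM2 Con, 4.7, 1.4, 4.12 and 2.92 in SmoM2 BCC, 1.16, 0.126 and 0.3 in PKI Con, and 45.2, 37.9, 29.6 and 36.1 in PKI BCC, with an interaction of 4.33 (SE 0.73, adjusted p 0.0013). The interaction of the ligand Shh was 3.21 (adjusted p 0.0494), but its highest level was 1.7 CPM and the call ended under 11 of the 23 alternatives. Hhip had an interaction of −6.10 (SE 1.66, adjusted p 0.0222), with 85.7 to 215 CPM in SmoM2 BCC and 3.18 to 4.71 in PKI BCC. Its controls split, with 29 and 52.1 CPM in the Con libraries that hold Xist and 1.38 to 4.38 in the other 4. The call of Hhip ended without SmoM2 Con replicate 1 and without PKI Con replicate 1, with interactions between −8.44 and −3.42 over the alternatives.

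**Figure D3:**
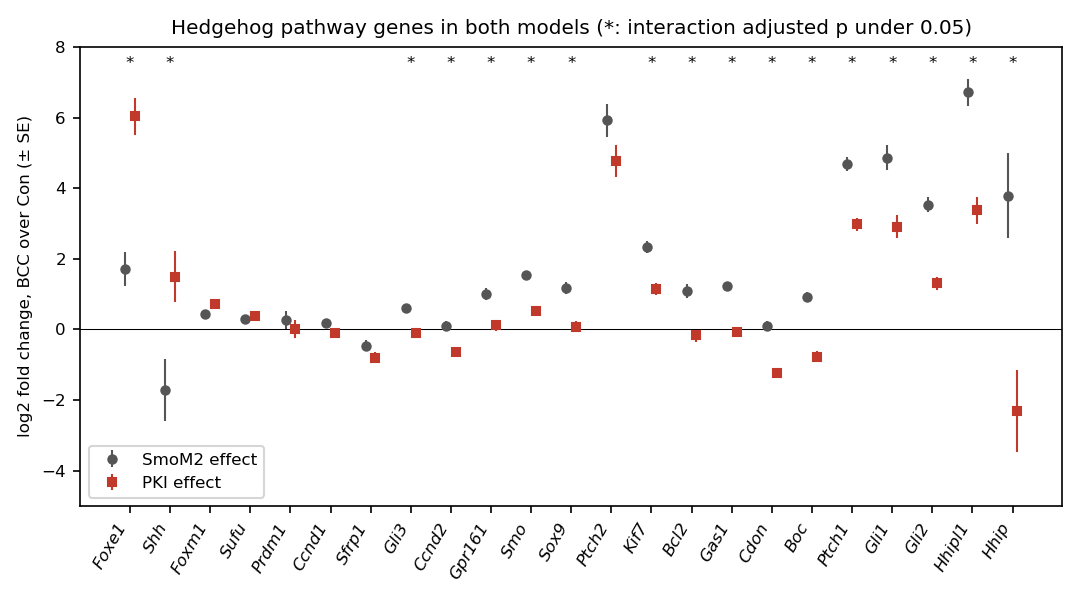
Tumour effects of the 23 Hedgehog pathway genes tested in SmoM2 (grey circles) and PKI (red squares), as log2 fold changes from Con to BCC with SE, where a star marks an interaction with an adjusted p under 0.05. In 15 starred genes the SmoM2 value is the higher, Foxe1 and Shh are the exceptions, and Ptch1 and Gli1 rose in both models.

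The median interaction of the cAMP and protein kinase A machinery lay close to that over all genes tested. Of 25 genes tested, the interaction was higher in PKI for 1 and lower for 7, with a median of −0.04, and each model raised 8 genes and lowered 5. The count of 8 fell to 5 without SmoM2 Con replicate 2 or PKI Con replicate 1, and to 4 in the joint fit. Prkar1b, a regulatory subunit, had an interaction of −2.19 (SE 0.40, adjusted p 0.00146), with 6.19 to 7.6 CPM in SmoM2 BCC and 1.34 to 2.45 in PKI BCC. Prkar2b, another regulatory subunit, had −0.83. Adcy6, an adenylyl cyclase, fell in PKI (−1.10) with an effect of 0.10 in SmoM2. Pkia, which encodes the endogenous inhibitor, had 5.69 to 9.85 CPM in SmoM2 BCC and 2.1 to 3.73 in PKI BCC, an interaction of −1.51 (SE 0.37, adjusted p 0.00939). Its PKI effect of −0.63 did not pass (adjusted p 0.0763), and whether PKI construct reads count under it is not given in the sources used here. Gnas had an interaction of −0.42 (SE 0.09, adjusted p 0.00506), which did not pass in the joint fit. Its level went from 181 to 192 CPM to 285 to 310 in SmoM2, and from 233 to 266 CPM to 276 to 313 in PKI. The tumour groups overlapped, while the PKI controls lay above the SmoM2 controls. Gnas overlaps Nespas and Gm20721 on the other strand.

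CREB-induced genes showed no common direction in the interaction. Of 18 tested, 2 had a higher and 3 a lower interaction, with a median of 0.30. In PKI 6 rose and 2 fell (median 0.68), and in SmoM2 3 rose and 0 fell (median 0.52). Areg, whose promoter is printed above, had 0.703 to 1.6 CPM in SmoM2 controls, 0.543 to 2.73 in SmoM2 tumours, 0.567 to 1.14 in PKI controls and 14, 13.2, 8.67 and 10 in PKI BCC. Its interaction was 3.30 (SE 0.63, adjusted p 0.00228). Junb, an AP-1 subunit, had interaction 1.37, which ended without SmoM2 Con replicate 3 or PKI Con replicate 3. Per1, a clock gene, had −1.36 and Bdnf, a neurotrophin at 0.877 to 2.76 CPM, −1.23, and the call of Bdnf ended under 9 of 23 alternatives. Without SmoM2 Con replicate 3, 3 genes of the list were called in place of 5.

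Wound and stress keratinocyte genes rose far more in PKI. These are genes that skin switches on when injured or inflamed. Of 25 tested, 13 had a higher interaction and 1 a lower, with a median of 2.57. In PKI 22 rose and 0 fell (median 2.75), and in SmoM2 9 rose and 1 fell (median 1.02). Krt6b, a keratin of activated epidermis, had 189, 96.1 and 79.6 CPM in SmoM2 Con, 110, 64.5, 517 and 294 in SmoM2 BCC, 5.06, 8.57 and 4.92 in PKI Con, and 4140, 3020, 1300 and 1710 in PKI BCC. The PKI controls were the lowest of the 14 libraries and the PKI tumours the highest, so its interaction of 7.67 (SE 1.09, adjusted p 0.000778) includes a difference between controls. Reads of Krt6b and its near copy Krt6a may have been divided between them. Sprr2a3, a cornified envelope precursor of a family of near copies, had 1060, 428, 278 and 115 CPM in PKI BCC and at most 30.6 in the other libraries of the comparison, an interaction of 7.89 (SE 1.35, adjusted p 0.00234). S100a8 and S100a9, the calprotectin subunits, rose in both models and more in PKI, with interactions of 4.99 (adjusted p 0.0148) and 5.19 (adjusted p 0.0173). S100a8 had 198 to 431 CPM in SmoM2 BCC and 437 to 1580 in PKI BCC, and its controls ranged from 4.38 to 42.2 in SmoM2 and from 0.378 to 4.71 in PKI. The gene with the lower interaction was Tnc, the matrix protein tenascin C (−1.98), which rose in both models.

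Leukocyte markers moved with these genes. Of 16 tested, 10 had a higher interaction and 0 a lower, with a median of 2.22, and in PKI 12 rose while in SmoM2 0 rose and 1 fell. Cd207, the Langerhans cell lectin, had 17.7, 15.9, 17 and 12.8 CPM in PKI BCC, 2.52 to 6.74 in PKI Con, 1.41 to 6.86 in SmoM2 BCC and 4.36 to 6.65 in SmoM2 Con, an interaction of 2.60 (SE 0.64, adjusted p 0.0112). Itgax, an integrin of dendritic cells, had interaction 3.31 and Coro1a, a leukocyte actin regulator, 2.86. Chemokine genes gave 4 higher and 3 lower interactions of 13, among them Ccl22 at 10.1 to 30.9 CPM in PKI BCC and at most 3.28 in the other SmoM2 and PKI libraries, though 11.1 in 1 Gnas-eKO tumour (interaction 3.70), Ccl20 (2.06) and the scavenger receptor Ackr3 (−1.29). Cxcl5, a neutrophil attractant, was at 0 in the 3 PKI Con libraries and at 0.876 to 2.72 CPM in PKI BCC, and its call ended without SmoM2 Con replicate 1 or 2. Of 18 interferon-stimulated genes tested 2 had a higher interaction and 0 a lower, with a median of 0.09, and the chemokine Cxcl10, a member of that list, had an interaction of 2.72 (SE 0.73, adjusted p 0.0149). Some wound genes, S100a8 and S100a9 among them, are also expressed by leukocytes, and the part of these cells in the result was not tested.

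Genes of the inner root sheath, the sleeve that guides a growing hair, had the highest median interaction of the lists. Of 13 genes tested, 12 had a higher interaction and 1, the factor Gata3 (−0.66), a lower, with a median of 5.44. In PKI 10 rose and 0 fell, and in SmoM2 1 rose and 2 fell. Krt27 had 9.77, 20.5 and 26.5 CPM in SmoM2 Con, 3.12, 6.81, 14 and 4.78 in SmoM2 BCC, 16.4, 1.83 and 1.08 in PKI Con, and 192, 184, 164 and 214 in PKI BCC. Its interaction was 6.22 (SE 1.10, adjusted p 0.00268). Krt28 had an interaction of 6.06 and Padi3, an enzyme that citrullinates trichohyalin, one of 6.10. Krt26 was at 45.7 to 75.4 CPM in PKI BCC and at most 1.78 in the other libraries of the comparison (interaction 8.21, SE 1.29, adjusted p 0.00115). With 0.658, 0 and 0 CPM in PKI Con, its interaction ran from 5.79 to 13.5 over the alternatives. PKI Con replicate 1, with 16.4 CPM of Krt27, 14.3 of Krt28 and 2.79 of Padi3, lay above the other PKI controls. Between 11 and 13 genes of the list were called under every setting and left-out library.

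Hard keratins of hair and tail scale followed in part. Of 18 tested, 7 had a higher interaction and 0 a lower, with a median of 2.34. The list held 7 genes that rose and 2 that fell in PKI, and 1 that rose and 5 that fell in SmoM2. Krt84 and Krt36, at far higher levels than the genes named next, were lower in the tumours of both models. Krt84 went from 12300 to 28900 CPM to 1360 to 3390 in SmoM2, and from 7030 to 16800 to 764 to 3230 in PKI. Krt36 went from 8290 to 18400 CPM to 997 to 2410 in SmoM2, and from 5150 to 11800 to 535 to 2380 in PKI. Krt35 had an interaction of 5.06 and Krt82 one of 5.03, both keratins of the hair cuticle or cortex. Krt35 stood at 53.5 to 231 CPM in PKI BCC, 5.11 to 22.3 in PKI Con, 3.12 to 22.8 in SmoM2 BCC and 12.8 to 40.8 in SmoM2 Con. Without PKI Con replicate 1, 15 of the 18 were called in place of 7. Dlx3, described above, was the opposed member.

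**Figure D4:**
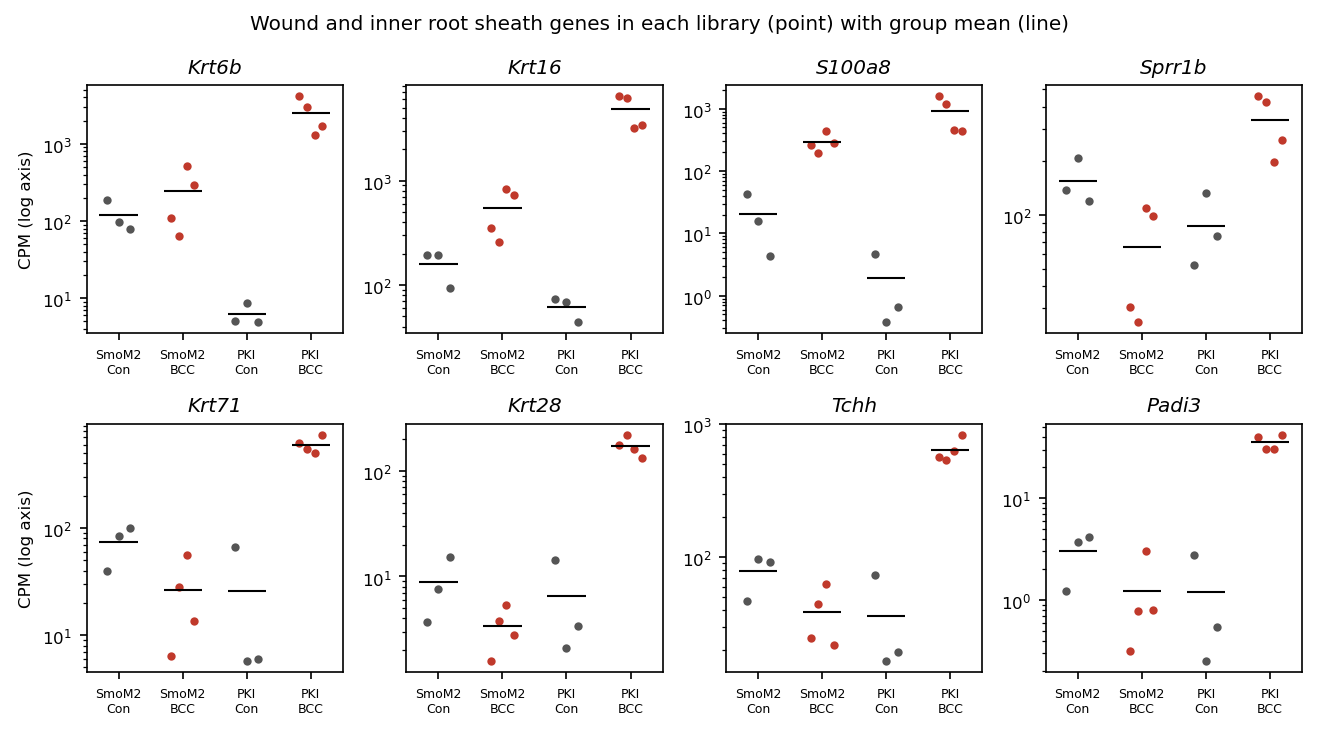
CPM of 4 wound genes (upper row) and 4 inner root sheath genes (lower row) in each of the 14 libraries (points, log axis, BCC in red) with group means (lines). By group mean PKI BCC is the highest group in every panel, and Krt16 and S100a8 are also raised in SmoM2 BCC. In the lower row PKI Con replicate 1 lies above the other PKI controls.

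Proliferation genes rose in PKI and not in SmoM2. Of 27 tested, 22 had a higher interaction and 0 a lower, with a median of 1.01. In PKI 25 rose (median 0.83), and in SmoM2 0 rose and 2 fell (median −0.12). Rrm2, a ribonucleotide reductase subunit, was opposed, with 64, 58.5 and 55.5 CPM in SmoM2 Con, 44.7, 39.9, 43.2 and 40.5 in SmoM2 BCC, 53.7, 45.5 and 46 in PKI Con, and 113, 98.6, 82.4 and 83.1 in PKI BCC. The groups did not overlap in either model, and its interaction was 1.46 (SE 0.15, adjusted p 2.78e-05). Pcna, the replication clamp, was the other opposed member (0.66). The mitotic kinases Aurka and Plk1 had interactions of 1.49 and 1.32 and the cyclin Ccnb1 one of 1.13. Aurka stood at 9.13 to 14.6 CPM in SmoM2 BCC and 23.2 to 30.3 in PKI BCC. Between 20 and 24 genes of the list were called under every setting and left-out library.

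Glycolysis and hypoxia genes had 8 higher and 1 lower interaction of 22 tested, with a median of 0.32. Eno1, the glycolytic enolase, had 411, 293, 200 and 208 CPM in PKI BCC, 121 to 127 in PKI Con, and 125 to 177 over the SmoM2 libraries, an interaction of 1.27 (SE 0.29, adjusted p 0.00748). Egln3, an oxygen-sensing hydroxylase, had 1.31 and Pkm, pyruvate kinase, 0.84. The call of the glucose transporter Slc2a1 (0.83, adjusted p 0.0416) ended under 13 of 23 alternatives. Hk2, a hexokinase, rose in both models and had the lower interaction (−0.40), a call that ended under 5 of 23 alternatives, namely the joint fit and without SmoM2 Con replicate 1 or 2 or PKI Con replicate 1 or 2.

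Hair follicle stem and bud genes rose more in SmoM2. Of 24 tested, 14 had a lower interaction and 2 a higher, with a median of −0.59. In SmoM2 15 rose and 0 fell, and in PKI 9 rose and 4 fell. Lgr5, the stem cell receptor for R-spondins, had 11.6, 11.8 and 18.2 CPM in SmoM2 Con, 120, 93.1, 118 and 106 in SmoM2 BCC, 19.9, 16.3 and 14.8 in PKI Con, and 24.7, 18, 23.9 and 28.2 in PKI BCC. PKI tumours overlapped their controls while SmoM2 tumours stood far above theirs, and the interaction was −2.50 (SE 0.25, adjusted p 2.56e-05). Wif1, a secreted Wnt inhibitor, had an interaction of −3.27, with 18.8 to 27.4 CPM in SmoM2 BCC and 1.78 to 6.06 in PKI BCC. Ltbp2, a microfibril protein, was opposed (−2.21, SE 0.37, adjusted p 0.00103). Krt19, a keratin of the bulge, went the other way with 1.82 to 4.12 CPM in PKI BCC and at most 0.755 in the other SmoM2 and PKI libraries (interaction 4.14). In the joint fit 8 genes of the list were called in place of 16.

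YAP targets held 4 opposed genes, all higher in SmoM2 and lower in PKI, namely Ccn2, Nt5e, Lats2 and Ajuba. Of 15 tested, 7 had a lower interaction and 1 a higher, with a median of −0.41. Nt5e, an ecto-nucleotidase, had 38.2 to 53.2 CPM in SmoM2 controls, 54.1 to 65.4 in SmoM2 tumours, 43.3 to 53.1 in PKI controls and 26 to 33.6 in PKI tumours, an interaction of −1.03 (SE 0.17, adjusted p 0.000841). Lats2, a kinase that restrains YAP, had −0.81 and the scaffold Ajuba −0.51. Tgfb2, a growth factor, rose in SmoM2 (1.80), and its PKI effect of −0.28 did not pass (adjusted p 0.152). Ccn1, another standard target, had an interaction of 0.64 that did not pass the test.

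Wnt, Notch and BMP genes had 7 higher and 4 lower interactions of 28 tested, with a median of −0.06, and 7 in place of 11 were called in the joint fit. Wnt7b, a Wnt ligand, rose in both models, to 248 to 280 CPM in SmoM2 BCC and 72.4 to 82.1 in PKI BCC from 50.2 to 67 in the controls, an interaction of −1.90 (SE 0.12, adjusted p 2.73e-07). Wnt5a, a ligand of the non-canonical arm, had 30.7 to 37.3 CPM in PKI BCC and at most 14.6 in the other libraries of the comparison, an interaction of 1.43. Heyl, a Notch target, had an interaction of 3.70, with 23.1 to 32 CPM in PKI BCC and 5.02 to 7.31 in SmoM2 BCC. The ligand gene Bmp2 had −1.10, which did not pass in the joint fit, against 2.32 for Bmp4.

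Of 31 terminal differentiation genes, 20 fell and 0 rose in SmoM2, and 14 fell and 1 rose in PKI. The interaction was higher in PKI for 7 and lower for 0, with a median of 0.36. Tgm3, a crosslinking enzyme, had 170 to 258 CPM in SmoM2 BCC and 386 to 646 in PKI BCC, an interaction of 1.21 (SE 0.25, adjusted p 0.00351). The calls of Tgm1, Casp14 and Abca12, at interactions of 1.13, 1.17 and 1.03, ended under 4, 14 and 4 of the alternatives, and the list's count of 7 fell to 2 without SmoM2 Con replicate 2 or 3 or PKI Con replicate 1 or 3. It fell to 4 in the joint fit and without SmoM2 BCC replicate 2, PKI BCC replicate 2 or PKI BCC replicate 4.

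Basal layer and adhesion genes had 6 lower interactions and 1 higher of 18. The higher was that of Krt14, the main basal keratin, which fell in SmoM2 from 14700, 14000 and 10700 CPM to 5370, 5430, 5780 and 6070. In PKI it went from 12500, 13300 and 14700 CPM to 14600, 14600, 12300 and 12000. Its interaction was 1.20 (SE 0.15, adjusted p 0.000118). Its partner Krt5 fell in both models with an interaction of 0.08. Lamb3, a laminin chain of the basement membrane, was opposed (−1.15, SE 0.16, adjusted p 0.000195), with 344 to 406 CPM in SmoM2 BCC and 200 to 245 in PKI BCC. Sfn, a keratinocyte 14-3-3 protein, was also opposed (1.29, SE 0.17, adjusted p 0.000148). Among sterol and fatty acid genes 1 of 22 had a higher and 1 a lower interaction, the latter being the opposed isomerase gene Idi1 (−1.32), and between 1 and 6 were called when a library was left out. The count of 2 became 5 without SmoM2 BCC replicate 2, 4 without SmoM2 BCC replicate 4, 1 without PKI Con replicate 3 and 6 without PKI BCC replicate 1. Adding sex as a covariate also gave 5, as did DESeq2.

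**Figure D5:**
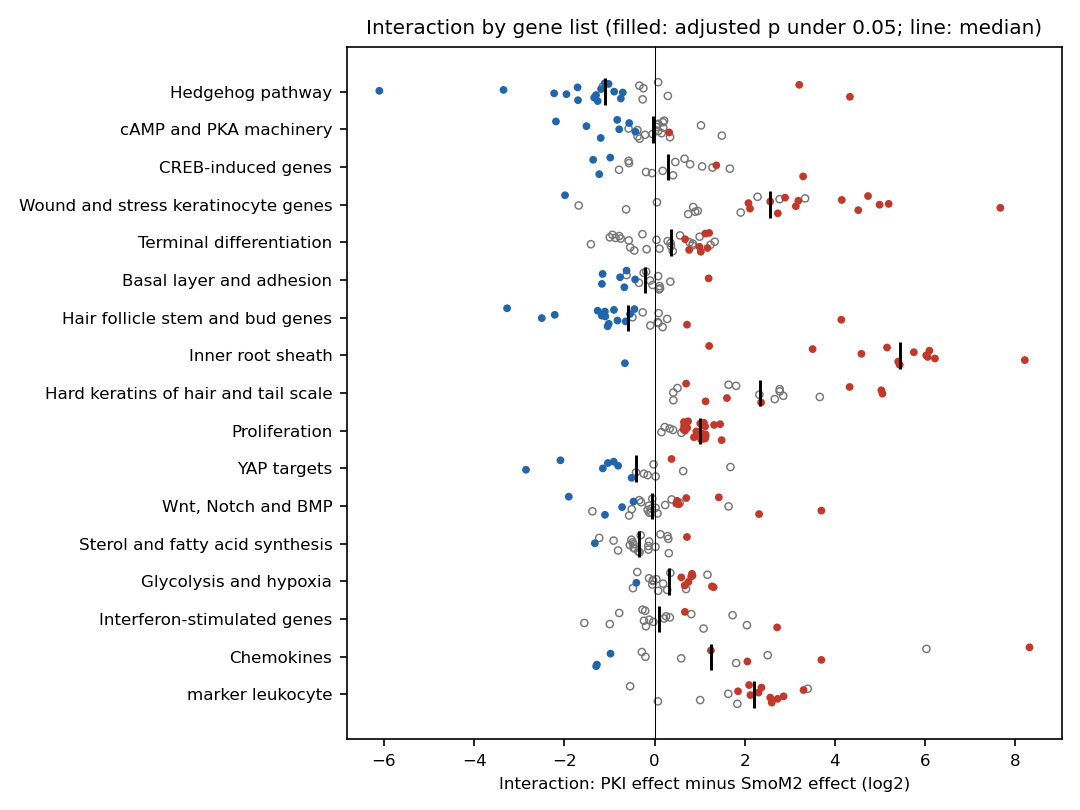
Interaction of every tested gene of 16 gene lists and of the leukocyte markers, as the PKI effect minus the SmoM2 effect on the log2 scale (filled points pass an adjusted p under 0.05, bars are list medians). Inner root sheath genes have the highest median at 5.44 and Hedgehog genes the lowest at −1.10.

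Some interactions rested on single groups. Genes that set 1 group at least 4-fold apart from every other library among the 14, with 0.5 CPM added, were counted by a rule chosen after the data were seen, which does not read the Gnas-eKO libraries. SmoM2 Con stood below for 3 genes and above for 3, SmoM2 BCC below for 1 and above for 33, PKI Con below for 2 and PKI BCC above for 19. Rpsa-ps2, a ribosomal protein pseudogene (chr10:128776371-128777250), had 4.26, 4.87 and 3.84 CPM in SmoM2 Con and 172 to 206 in the other 11 libraries of the comparison, with an interaction of −5.49 (SE 0.13, adjusted p 1.87e-12). The level also split the Gnas-eKO libraries within both groups, with 5.57, 5.31 and 84.1 CPM of Rpsa-ps2 in Con and 2.8, 77.5, 8.33 and 75.3 in BCC. Gypc and Krt6b were the genes low in PKI Con by this rule. Slc15a2, a peptide transporter, reached 0.287 CPM at most in SmoM2 controls and 9.27 to 15 in their tumours, with 20.8 to 41.1 in PKI Con and 18.1, 0.722, 1.6 and 40.8 in PKI BCC. Its interaction of −7.25 (SE 1.92, adjusted p 0.0196) did not pass without SmoM2 Con replicate 1 or 3, and PKI BCC libraries divided into a high and a low pair. Gm6344 had interaction 6.91, with 0.504, 0.0573 and 88 CPM within SmoM2 Con, and the call ended under 17 of its 22 alternatives. Serpina3i, a protease inhibitor, had 84.9 to 106 CPM in SmoM2 BCC, and PKI Con had 41.5, 5.23 and 7.33, with an interaction of −4.04. The PKI BCC genes of this kind included Krt26, Krt27, Krt28, Krt71, Krt75, Padi3, Tchh and Foxe1, the SmoM2 BCC genes Hhipl1, Vcan and Cdh11. Some of these also had high values in Gnas-eKO BCC libraries, so the rule does not show that a level belongs to 1 model. Vcan, the matrix proteoglycan versican, had 72.1 to 123 CPM in SmoM2 BCC and 188, 22.1, 39.6 and 262 in Gnas-eKO BCC. Cdh11, a cadherin, had 28.6 to 39.6 CPM in SmoM2 BCC and 31.2, 22.9, 19.9 and 46.7 in Gnas-eKO BCC, and Foxe1 had 21.7, 0.912, 7.47 and 10.9 in the latter.

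Fibroblast and other markers were read beside these results. Dcn, decorin of fibroblasts, rose in both models, to 362 to 500 CPM in SmoM2 BCC and 61.6 to 119 in PKI BCC, an interaction of −2.14 (SE 0.48, adjusted p 0.00777) that did not pass in the joint fit. Thy1 had 1.78 and Col1a1 1.69, the latter past the test only without PKI Con replicate 1. The tumour groups overlapped for Thy1, at 41.6 to 55.9 CPM in SmoM2 and 27.3 to 59.1 in PKI. Its controls differed, at 106 to 137 CPM in SmoM2 and 20.9 to 40.7 in PKI. Merkel cell markers summed to 2.8 to 4.09 CPM in PKI BCC and 6.39 to 9.25 in the other groups, and of 8 melanocyte markers 1, Mitf (−0.84), had a called interaction. The part of these cells in the differences was not tested.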

How the data were processed

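Polyadenylated RNA of tail keratinocytes was sequenced after a stranded ligation preparation, per the labels' protocols. The authors deposited estimated counts per gene, not normalized, of which 33.1% are not whole. A second table holds a normalized signal, each count times 1 factor per library plus 0.001, as deposited by the authors. STAR 2.7.0f, cutadapt 1.18, bcl2fastq 2.20, Partek and mm10 are named per the submitters' processing notes. The counter and its use of strand are not given in the sources used here, so genes overlapping on the other strand are uncertain. The table has 23713 genes with at least 10 summed counts.

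Counts were rounded, filtered (filterByExpr), TMM-scaled and fitted for 14 libraries with edgeR 4.0.16 (R 4.3.3; glmQLFit robust, glmQLFTest), with 1 mean per group. The interaction is (PKI BCC − PKI Con) − (SmoM2 BCC − SmoM2 Con). Adjusted p-values are Benjamini-Hochberg over 17261 genes, called under 0.05. Standard errors are the log2 fold change over the root of F. CPM use TMM-scaled sizes. The method was tested on simulated data. Gnas-eKO was fitted in its 7 libraries. The floor of 3 counts covers counting error only.

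The members and gene lists were chosen with earlier results of these data known. Named were called Hedgehog genes, the 10 highest and 10 lowest opposed genes averaging a log2 CPM of 2 or more with BCC and Con apart in both models, the 4 highest and 4 lowest other calls, the 4 largest calls of each other list, and Smo, Gnas and Pkia. Another gene under this rule is not reported here. Further list members and genes apart in 1 group were named after their values were seen. Alternatives were other scaling (DESeq2 1.42.0 size factors, upper quartile), the DESeq2 Wald test, 2 other filters, the signal with limma 3.58.1 (pseudocount 1), sex, a replicate block, joint and separate fits, and leaving out each library. No libraries of a group agreed within sampling noise.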

Additional observations from a re-analysis of the deposited data

Results flagged for a closer look

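Each of the 4300 genes called in the interaction differs between the models by the test of the difference itself, and 479 of them are opposed. The opposed genes named in the text have these interactions on the log2 scale. Higher in PKI were Stfa3 (4.74), Lrat (2.97), Fabp5 (2.80), Dlx3 (2.36), Bmp4 (2.32), Pcdh19 (2.13), Sytl2 (1.92), Ulbp1 (1.76), Ripk3 (1.66), Thbd (1.60), Rrm2 (1.46), Sfn (1.29) and Pcna (0.66). Lower in PKI were Nptx1 (−6.19), Tmem181b-ps (−4.98), Fam171b (−4.63), Angptl7 (−3.70), Fam13a (−3.53), Grem1 (−3.45), Pdgfc (−3.43), Prrg3 (−3.28), Rbms3 (−3.01), Klf15 (−2.89), Ccn2 (−2.85), Ltbp2 (−2.21), Boc (−1.70), Idi1 (−1.32), Lamb3 (−1.15), Nt5e (−1.03), Lats2 (−0.81) and Ajuba (−0.51).

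In 13 of 212 groups of 4 libraries, over the named genes, 1 library lay far from the other 3, and chance alone does this in about 1 group in 20. SmoM2 BCC replicate 2 stood high for Thbd (104 CPM), Slc15a2 (15 CPM) and Cdon (50.7 CPM), and SmoM2 BCC replicate 3 for Fam13a (25.3 CPM) and Junb (234 CPM). PKI BCC replicate 2 stood low for Pcdh19 (23.3 CPM), Nt5e (26 CPM) and Trp63 (602 CPM), and PKI BCC replicate 3 for Serpina3i (6.76 CPM) and Gas1 (275 CPM). PKI BCC replicate 4 stood low for Nptx1 (1.48 CPM) and high for Scd2 (780 CPM), and PKI BCC replicate 1 high for Itgax (12.6 CPM).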

How the results depend on the processing

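For the 106 genes that the naming rule gives, no interaction changed sign under the alternatives. Of their 2436 pairs of a gene and an alternative, 2341 kept their call, 95 lost it and 0 gained one, and 85 genes kept it throughout. For 10 other genes given with an interaction, 222 of 230 pairs kept their call, 6 lost it, 1 gained it (Col1a1), and that of Krt5, which had not passed, became −0.0131 without SmoM2 Con replicate 1 (−0.0131 to 0.166 when 1 library was left out). The interaction was called for 4886 genes with the DESeq2 Wald test, 2993 in the joint fit, 3949 without a filter, and 3401 to 4429 when 1 library was left out. The opposed count was 349 to 502 when 1 library was left out, and 127 to 215 for those higher in PKI. The joint fit gave 263 opposed genes, 107 higher and 156 lower in PKI. Separate fits of 7 libraries gave 363, of which 323 were among the 479. The Gnas-eKO count of 267 became 2644 in the joint fit and 0 to 1910 when 1 library was left out. Same-numbered Con and BCC libraries did not deviate together in SmoM2 (mean correlation −0.099). In PKI the correlations were 0.25, −0.054 and 0.15 (mean 0.12), so the numbers were not taken as pairs in the main fit. A replicate block gave 3958 interaction calls, 462 opposed genes (344 among the 479) and 135 Gnas-eKO calls, and 12 named genes lost their call, with adjusted p from 0.0516 to 0.219. These were S100a8 (adjusted p 0.0786), S100a9 (0.0852), Hhip (0.174), Dcn (0.0749), Cxcl5 (0.0546), Per1 (0.0516), Sox9 (0.0613), Krt86 (0.0523), Bdnf, Casp14, Shh and Gm6344. The block left 9 of 14 wound, 3 of 5 CREB-induced and 6 against 2 sterol calls. The authors' signal gave 13 hard keratin calls. Depth limits genes near 0.189 CPM, such as Shh and Cxcl5.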
